A study of Mus musculus with 24 samples.

Results

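The hippocampus of wild type mice was compared between the end of a water gavage and a later stage without gavage, on 9 of the 24 one-colour Agilent arrays of the series. Arrays were chosen by their labels alone: 4 belonged to WT_CTR and 5 to WT_WASHOUT, with 1 male animal per array. Both groups carried neither transgene of the strain labelled B6.Cg-Tg(APPswe,PSEN1dE9)85Dbo/J. WT_CTR animals had water and an age of 8 months in the sample labels, and WT_WASHOUT animals had water, then a washout, and an age of 9 months. The treatment text places the gavage from 2 to 7 months of age, with collection at its end or 1 month later, so the sources disagree on age by 1 month. Neither group received urolithin A, the compound under study in the transgenic animals. The step therefore holds 1 more month of age and 1 month without daily gavage together, and these cannot be told apart. It served the study as the wild type counterpart of the washout of the compound. Sources used here do not say whether wild type animals were littermates of the transgenic ones.

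Values are log2 processed signals minus the 75th percentile of the array, called levels here, and a difference is WT_WASHOUT minus WT_CTR with the standard error (SE) of a limma fit to all 24 arrays. A gene was called where the Benjamini-Hochberg adjusted p over all 35259 genes tested was under 0.05. WT_CTR lay wholly on slide 1 and WT_WASHOUT wholly on slide 2, so slide and stage cannot be told apart within the wild type. Array row was also nearly split by stage, with all 4 WT_CTR arrays in row 1 and 4 of the 5 WT_WASHOUT arrays in row 2. Only APP-PS1_UA, the transgenic group given urolithin A, bridged both slides, with 1 array on slide 1 and 3 on slide 2. Between 68.49% and 74.38% of the spots of a wild type array were well above background and 0 were saturated. Arrays correlated at 0.9813 to 0.9886 within WT_CTR, 0.9766 to 0.9903 within WT_WASHOUT and 0.9783 to 0.991 between them. Of 19 markers of hippocampal subfields, 18 were well above background on all 9 arrays, among them Prox1 of the dentate gyrus and Wfs1 of CA1. The genotype labels were borne out by Prnp, whose levels were 5.25 to 5.61 on the 9 wild type arrays and 6.67 to 7.06 on the 15 transgenic ones. Cst7, a gene of plaque-associated microglia, ran from -6.50 to -5.27 in wild type and from -0.81 to 0.84 in transgenic animals.

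Immediate early genes are transcribed within minutes of synaptic activity, growth factors or stress, without new protein synthesis. Their products include transcription factors such as Fos and Egr proteins, and feedback proteins such as the phosphatase Dusp1 that shut the signal off. Many of their promoters hold a cAMP response element, which the factor CREB binds, or a CArG box, which serum response factor binds. In hippocampal neurons these genes are used as markers of recent activity. Among the called genes described below are Ch25h, an enzyme that makes 25-hydroxycholesterol, and Cxcl1, a chemokine that draws neutrophils.

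The promoter sequences of 4 genes are shown as examples: Fos, Nr4a1 and Dusp1 of the genes with separated groups, and Ch25h of the called genes. Other genes met the same conditions and are not shown. Each is the 250 bases before the start of the gene in RefSeq on GRCm38.p6, read 5′ to 3′ on the gene's strand, with matches to the motifs in capitals.
Fos (chr12:85473640-85473889, plus strand): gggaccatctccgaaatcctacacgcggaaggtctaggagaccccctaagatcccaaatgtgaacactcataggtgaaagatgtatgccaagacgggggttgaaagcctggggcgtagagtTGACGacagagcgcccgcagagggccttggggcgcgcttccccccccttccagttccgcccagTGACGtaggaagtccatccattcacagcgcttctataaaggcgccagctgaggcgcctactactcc
Nr4a1 (chr15:101266596-101266845, plus strand): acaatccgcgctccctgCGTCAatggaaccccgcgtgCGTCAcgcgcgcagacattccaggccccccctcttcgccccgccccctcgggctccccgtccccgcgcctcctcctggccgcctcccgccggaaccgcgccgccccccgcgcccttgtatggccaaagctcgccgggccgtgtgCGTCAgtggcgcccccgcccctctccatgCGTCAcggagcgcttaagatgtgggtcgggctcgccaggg
Dusp1 (chr17:26508473-26508722, minus strand): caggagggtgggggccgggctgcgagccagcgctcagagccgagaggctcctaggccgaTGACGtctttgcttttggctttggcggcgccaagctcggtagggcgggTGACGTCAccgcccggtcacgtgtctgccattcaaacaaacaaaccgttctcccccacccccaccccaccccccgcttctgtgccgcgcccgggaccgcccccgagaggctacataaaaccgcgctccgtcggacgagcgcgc
Ch25h (chr19:34475149-34475398, minus strand): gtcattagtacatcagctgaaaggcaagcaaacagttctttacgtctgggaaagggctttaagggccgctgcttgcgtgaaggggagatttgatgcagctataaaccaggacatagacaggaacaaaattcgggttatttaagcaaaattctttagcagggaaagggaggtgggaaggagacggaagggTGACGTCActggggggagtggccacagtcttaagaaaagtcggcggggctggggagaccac
The 3 motifs searched on both strands were the full cAMP response element TGACGTCA, its core TGACG (which the full element contains), and the CArG box. Of all 32851 promoter windows of this length in the table, 1.55% held the full element, 17.8% the core and 1.47% the CArG box. The full element stood in the window of Dusp1, starting 143 bases before the gene's start, and in that of Ch25h, starting 61 bases before it. Fos held 2 cores and Nr4a1 held 4. Of the other called genes with a symbol, named below, Cxcl1 held 2 cores and Apold1 held 1. Depp1 and Avil held none of the 3 motifs. The table matched 11 of the 14 activity genes whose groups did not overlap, as described below, and in at least 1 window 10 of the 11 held the core, 1 the full element (Dusp1) and 1 the CArG box (Egr2). These matches describe letters and not bound sites.

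The step from treatment end to washout called 6 of 35259 genes in wild type mice (0.017%), 5 of them higher (0.0142%) and 1 lower (0.00284%) in WT_WASHOUT. The 5 that rose were Cxcl1, Ch25h, Apold1, Depp1 and Avil, by 1.80- to 5.87-fold, and each was well above background on all 9 arrays with no overlap between groups. The 1 that fell was probe A_55_P2935501, for which the reference holds no symbol. The median difference over all genes was -0.03, and 2884 genes (8.18%) had an unadjusted p under 0.05. With array row as a block, limma called 0 genes (smallest adjusted p 0.245), and 2395 had an unadjusted p under 0.05. In bulk tissue, fewer cells of a type and less RNA per cell cannot be told apart.

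Cxcl1 stood at levels of -5.43, -5.53, -5.79 and -5.78 on the WT_CTR arrays. On the WT_WASHOUT arrays it stood at -3.99, -2.58, -3.62, -3.12 and -2.08. All 5 washout arrays lay above all 4 control arrays, and they were also more spread, with an SD of 0.77 against 0.18. The difference of 2.55 ± 0.37 (SE, n = 4 and 5) was 5.87-fold and had an adjusted p of 0.0152 in limma.

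Ch25h had levels of -3.01, -3.75, -2.64 and -4.32 in WT_CTR. In WT_WASHOUT its levels were -1.18, -1.59, -0.82, -1.56 and -0.92. Every washout array was above every control array, and the controls held the wider spread (SD 0.75 against 0.36). The difference was 2.22 ± 0.32 (SE, n = 4 and 5), or 4.65-fold, with an adjusted p of 0.0152 in limma.

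Apold1, a gene of the endothelium that responds early to stimuli, lay between -2.86 and -1.92 on control arrays and between -1.29 and -0.82 on washout arrays. Its difference of 1.39 ± 0.23 (SE, n = 4 and 5) had a limma adjusted p of 0.0437. Depp1, a target of FOXO factors that takes part in autophagy control, lay between -3.23 and -2.87 in WT_CTR and between -2.09 and -1.67 in WT_WASHOUT. Its difference of 1.23 ± 0.20 (SE, n = 4 and 5) had a limma adjusted p of 0.0391. The groups of both genes lay clearly apart.

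Avil encodes advillin, an actin-binding protein known from sensory neurons, and here it had low levels of -4.78 to -4.23 in WT_CTR and of -3.88 to -3.40 in WT_WASHOUT. The difference was 0.85 ± 0.13 (SE, n = 4 and 5) with a limma adjusted p of 0.0227. The unnamed probe A_55_P2935501 ran from -4.96 to -4.15 in WT_CTR and from -6.19 to -5.55 in WT_WASHOUT, a difference of -1.31 ± 0.19 (SE, n = 4 and 5) with a limma adjusted p of 0.0152.

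**Figure D1:**
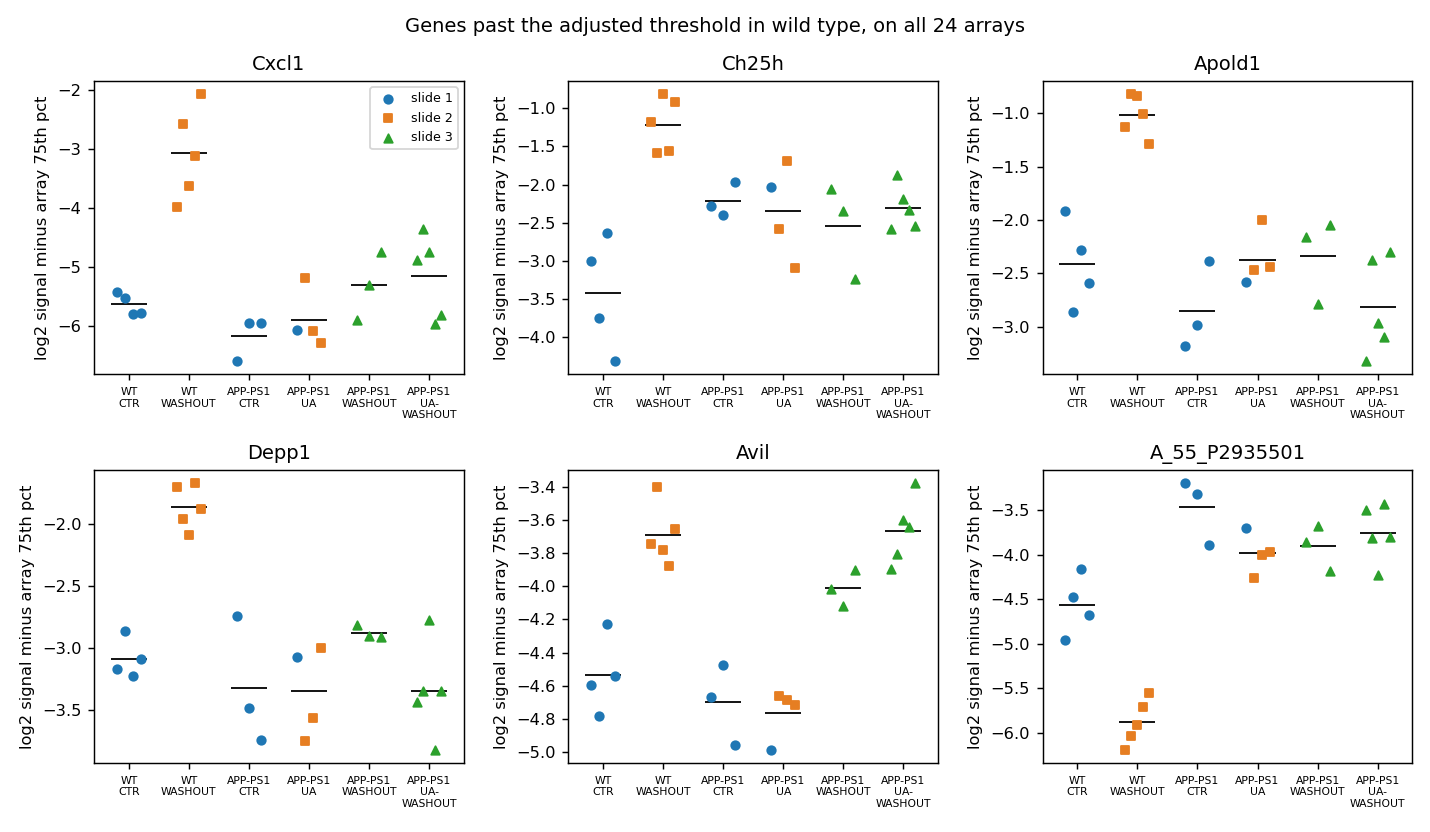
Levels (log2 signal minus the array's 75th percentile) of the 6 called genes on all 24 arrays, by group, with colour and marker for the slide and a line for the group mean. The 5 WT_WASHOUT arrays lie above the 4 WT_CTR arrays for 5 genes and below them for the probe A_55_P2935501, and the 3 APP-PS1_UA arrays of slide 2, of another genotype, treatment and stage, lie outside their range in all 6 panels, nearest in Ch25h (-1.69 against -1.59).

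The other 3 arrays of slide 2 were of APP-PS1_UA, which differed from WT_WASHOUT in genotype, treatment and stage, and lay in row 1, which held 1 of the 5 WT_WASHOUT arrays, so their levels stand beside those of WT_WASHOUT as values only. Cxcl1 had levels of -5.18, -6.08 and -6.28 on the 3 APP-PS1_UA arrays of slide 2 and -6.07 on that of slide 1. Depp1 had -3.75, -3.57 and -3.01 on slide 2 and -3.07 on slide 1. Apold1 had -2.47, -2.002 and -2.44 on slide 2 and -2.58 on slide 1. Ch25h had -2.58, -1.69 and -3.09 on slide 2 and -2.03 on slide 1, and the highest of these lay next to the lowest WT_WASHOUT array at -1.59. With slide as a fixed block, which rests on the 1 APP-PS1_UA array of slide 1, the differences were 2.33 for Cxcl1, 2.64 for Ch25h, 1.12 for Apold1, 1.60 for Depp1 and 0.55 for Avil. Their limma adjusted p-values were then 0.504 to 0.9999, and no gene of the 6 was called. With array row as a block they were 2.39, 2.02, 1.25, 1.16 and 0.82, with limma adjusted p-values of 0.470 to 0.542.

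The count of 6 rested on single arrays. Leaving out WT_CTR 2, WT_CTR 4 or WT_WASHOUT 2 left 0 called, leaving out WT_WASHOUT 5 left 1, leaving out WT_CTR 3 left 2, and leaving out WT_WASHOUT 1 gave 21. In limma on the 9 wild type arrays alone 0 genes were called and 2060 had an unadjusted p under 0.05. The differences of the named 5 genes kept their sign under every alternative run.

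Immediate early transcription factors lay higher at the washout stage by their median (0.66), while feedback genes (0.16) and neuronal effectors (0.05) were closer to the -0.03 of all genes. Of the 62 tested members of these 3 lists, 0 passed the adjusted threshold (lowest limma adjusted p 0.101, for Sik1). Groups did not overlap for 14 of the 62 (22.6%), all higher in WT_WASHOUT, beside 0.896% of all genes tested that were higher without overlap and 0.953% that were lower. An unadjusted p under 0.05 with a higher level was found for 22 of the 62, beside 3.99% of all genes, and 1 had a lower level with such a p, beside 4.19%. Of the 14, 8 were transcription factors, 4 feedback genes and 2 effectors. Members and lists were chosen with earlier results of these data known. The shares here and in the lists below are therefore descriptions and not a test.

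Of 21 immediate early transcription factors, all well above background on all 9 arrays, 20 were above 0 in their difference and the median was 0.66, beside -0.03 over all genes. The groups did not overlap for 8: Egr2, Fos, Nr4a1, Klf2, Ier2, Junb, Fosb and Klf4. The mean level over the list was 0.06 ± 0.18 (SD, n = 4) in WT_CTR and 0.79 ± 0.06 (SD, n = 5) in WT_WASHOUT. The lowest WT_WASHOUT array, at 0.73, stood above all 19 other arrays of the series, of which the highest was at 0.55.

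Fos, the AP-1 subunit used most often to mark active neurons, had levels of -0.45, -0.89, 0.31 and -0.32 in WT_CTR. In WT_WASHOUT it had 1.53, 1.504, 1.73, 1.52 and 1.38. The washout arrays were nearly level with each other and all above the controls, whose SD was 0.50 against 0.12. The difference was 1.87 ± 0.46 (SE, n = 4 and 5), or 3.66-fold, with a limma adjusted p of 0.285.

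Egr2, a zinc finger factor, had the largest difference of the list at 2.28 ± 0.54 (SE, n = 4 and 5), with a limma adjusted p of 0.249. Its levels were -1.80, -2.23, -1.05 and -1.44 in WT_CTR and 0.21, 0.48, 1.13, 0.39 and 1.03 in WT_WASHOUT. A clear gap separated the groups. Egr1 and Egr3 of the same family overlapped between groups, with differences of 0.52 ± 0.30 and 0.21 ± 0.16 (SE, n = 4 and 5), and Egr4 did too at 0.60 ± 0.23.

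Nr4a1, an orphan nuclear receptor, had levels of 2.84, 2.77, 3.50 and 3.31 in WT_CTR and of 3.86, 4.02, 4.45, 4.12 and 4.20 in WT_WASHOUT. The difference of 1.02 ± 0.28 (SE, n = 4 and 5) had a limma adjusted p of 0.370. The groups of its relatives overlapped: Nr4a2 differed by 0.65 ± 0.23 and Nr4a3, at -0.15 ± 0.17, was the 1 member of the list below 0.

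Junb, another AP-1 subunit, ran from 2.32 to 2.70 in WT_CTR and from 3.17 to 3.50 in WT_WASHOUT, and its difference of 0.82 ± 0.17 (SE, n = 4 and 5) had the lowest limma adjusted p of the list, 0.181. Ier2 (0.84 ± 0.22), Klf2 (0.89 ± 0.23), Fosb (0.79 ± 0.24) and Klf4 (0.66 ± 0.21) were separated as well, Fosb only just, since its highest control and its lowest washout array both stood at -0.96. Klf2 and Klf4 are Krüppel-like factors that are also abundant in vascular endothelium. Npas4, a factor of excitatory neurons induced by calcium entry, had 0.84, -1.19, 1.15 and 0.49 in WT_CTR and 1.08 to 1.67 in WT_WASHOUT. A single low control array, WT_CTR 2, made much of the spread of Npas4, and the groups overlapped. Jun, at 3.24 to 3.56 in WT_CTR and 3.34 to 3.85 in WT_WASHOUT, overlapped too.

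Atf3 and Maff, factors of the stress response, behaved differently from Fos within WT_WASHOUT. Atf3 had -4.84 on WT_WASHOUT 1 and -3.92 to -3.51 on the other 4 washout arrays, against -5.04 to -4.36 in WT_CTR. Maff had -4.90 on WT_WASHOUT 1 and -3.95 to -3.19 on the other 4, against -4.83 to -4.12. In both genes WT_WASHOUT 1 lay with the control arrays. WT_WASHOUT 1 was the only washout array in row 1 of its slide, and row 1 of slide 1 held all 4 control arrays.

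**Figure D2:**
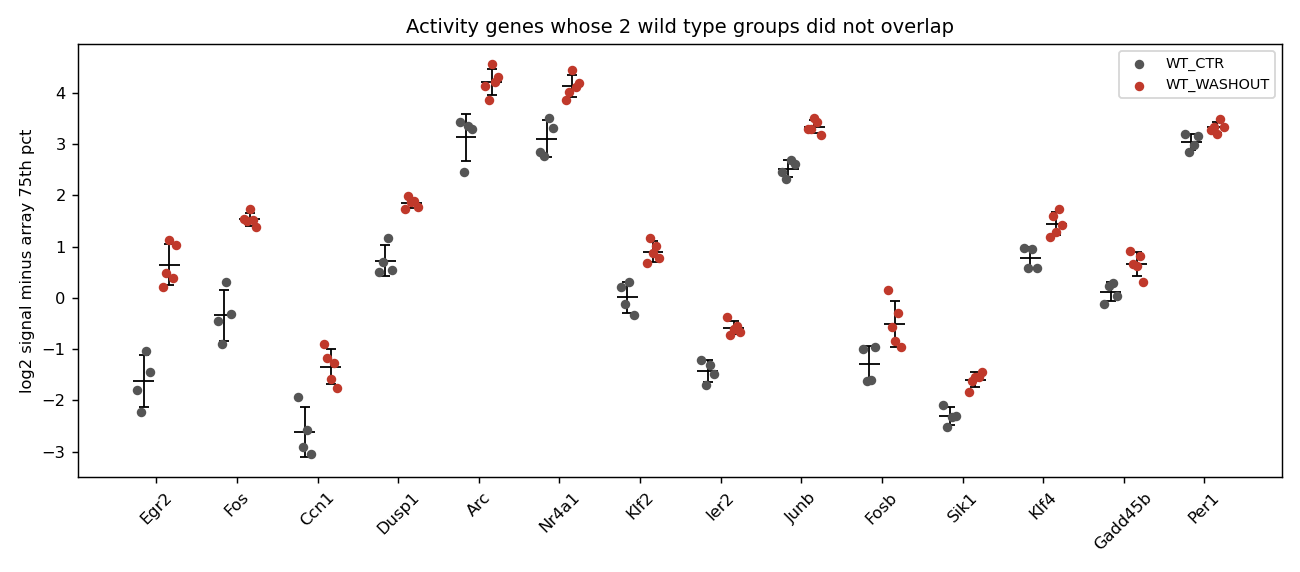
Levels (log2 signal minus the array's 75th percentile) of the 14 activity genes whose wild type groups did not overlap, in order of their difference, with 4 WT_CTR and 5 WT_WASHOUT points each and the mean ± SD. Egr2 and Fos have the widest gap between groups, and Per1 the narrowest difference at 0.28.

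Feedback and signalling genes of the immediate early response were divided. Of 21 tested, 4 had groups that did not overlap, all higher in WT_WASHOUT (Ccn1, Dusp1, Sik1 and Gadd45b). The median was 0.16 beside the -0.03 of all genes. An unadjusted limma p under 0.05 with a higher level was found for 6 of the 21, beside 3.99% of all genes. With a lower level it was found for 1, beside 4.19%. The mean level over the list was -0.46 to -0.26 in WT_CTR and -0.19 to -0.04 in WT_WASHOUT. The highest of the 19 other arrays of the series stood at -0.22, below all 5 WT_WASHOUT arrays. Ccn1, a matricellular protein, had levels of -1.94, -2.92, -2.59 and -3.04 in WT_CTR and of -0.91, -1.18, -1.59, -1.28 and -1.76 in WT_WASHOUT. Its difference of 1.28 ± 0.27 (SE, n = 4 and 5) had a limma adjusted p of 0.181.

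Dusp1, the phosphatase that inactivates MAP kinases and whose promoter held the full cAMP response element, had 0.50, 0.70, 1.16 and 0.55 in WT_CTR. In WT_WASHOUT it had 1.73, 1.99, 1.86, 1.88 and 1.78. The washout arrays were tight, with an SD of 0.10, and the difference was 1.12 ± 0.27 (SE, n = 4 and 5) with a limma adjusted p of 0.268. Sik1, a kinase that restrains CREB-driven transcription, ran from -2.52 to -2.09 and from -1.84 to -1.45, and its difference of 0.71 ± 0.13 (SE, n = 4 and 5) had a limma adjusted p of 0.101. Gadd45b differed by 0.55 ± 0.16, with its nearest arrays almost level at 0.30 in WT_CTR and 0.31 in WT_WASHOUT. The related phosphatases Dusp2, Dusp4, Dusp5 and Dusp6 overlapped between groups, with differences of -0.33, 0.01, 0.24 and 0.39. Ptgs2, the inducible cyclooxygenase, pointed the other way at -0.51 ± 0.24 (SE, n = 4 and 5).

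Neuronal effectors, which carry the response into synapses and secreted peptides, had a median of 0.05 over 20 tested members, and 2 did not overlap between groups. Arc, which drives AMPA receptor endocytosis, had levels of 3.44, 2.46, 3.36 and 3.30 in WT_CTR and of 4.14, 3.86, 4.57, 4.21 and 4.30 in WT_WASHOUT. The difference of 1.08 ± 0.38 (SE, n = 4 and 5) had a limma adjusted p of 0.483. Per1 differed by 0.28 ± 0.09. The other effectors had overlapping groups, among them Bdnf 0.15 ± 0.17, Homer1 0.11 ± 0.08, Nptx2 -0.15 ± 0.23, Vgf 0.04 ± 0.11 and Scg2 0.01 ± 0.10 (SE, n = 4 and 5). Of these overlapping effectors, Baz1a (0.44 ± 0.38) and Pcsk1 (0.27 ± 0.17) had the highest differences and Acan (-0.23 ± 0.20) the lowest.

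The bridge over slides moved several of these values. With slide as a fixed block, the differences were 1.12 ± 0.93 for Fos, 2.12 ± 1.10 for Egr2, 1.03 ± 0.57 for Nr4a1, 0.59 ± 0.35 for Junb, 0.59 ± 0.53 for Dusp1 and 0.74 ± 0.53 for Ccn1. Those of Fosb and Klf4 turned to -0.10 ± 0.43 and -0.13 ± 0.37, and that of Gadd45b to -0.01 ± 0.29. The list medians of transcription factors and feedback genes were then 0.54 and 0.12. With slide and array row as blocks together they were 0.17 and -0.01. On the 3 APP-PS1_UA arrays of slide 2 the mean level of the transcription factors was 0.08, 0.40 and -0.22, beside 0.73 to 0.85 in WT_WASHOUT, from which they also differ in genotype, treatment and stage, and it was -0.16 on the APP-PS1_UA array of slide 1. Fos varied more between those 3 arrays, at 0.08, 0.996 and -1.48, than between the 5 washout arrays.

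**Figure D3:**
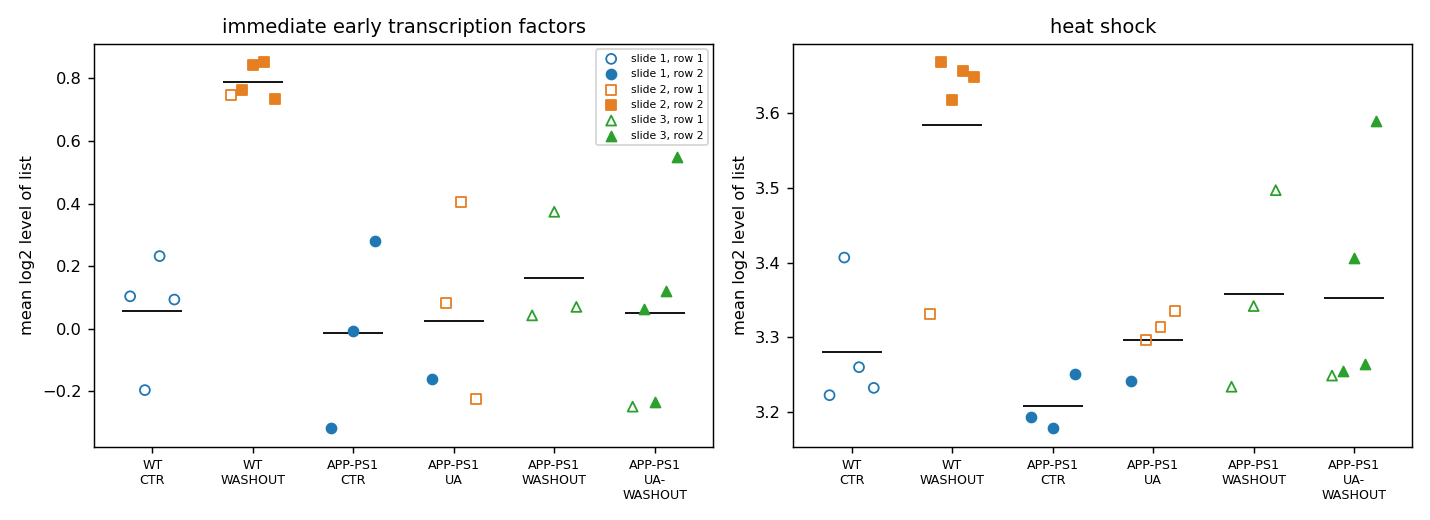
Mean log2 level over the 21 immediate early transcription factors (left) and the 18 heat shock genes (right) on each of the 24 arrays, by group, with colour and marker for the slide, open markers for array row 1, filled ones for row 2, and a line for the group mean. All 5 WT_WASHOUT arrays stand above the other 19 on the left, and on the right WT_WASHOUT 1, the open square at 3.33, lies apart from the other 4.

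Heat shock genes, which encode chaperones that refold proteins, had a median of 0.28 over 18 tested members, 17 of them above 0. None was called, and 11 of the 18 had an unadjusted p under 0.05 with a higher level, beside 3.99% of all genes. Groups did not overlap for 2 (Hsph1 and Chordc1), both higher in WT_WASHOUT, beside 0.896% of all genes. Dnajb1, a co-chaperone of Hsp70, ran from 3.37 to 3.89 in WT_CTR and had 3.86, 4.28, 4.22, 4.48 and 4.49 in WT_WASHOUT. Its difference of 0.68 ± 0.14 (SE, n = 4 and 5) had a limma adjusted p of 0.181. Hspa1b, an inducible Hsp70 whose near-identical copy Hspa1a can share its signal, had -0.76, 0.02, -0.40 and -0.63 in WT_CTR and -0.61, 0.82, 0.75, 0.76 and 0.61 in WT_WASHOUT. For Hspa1b, WT_WASHOUT 1 lay with the controls and the other 4 above them.

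The same held for the list as a whole. Its mean level was 3.22, 3.41, 3.26 and 3.23 in WT_CTR, 3.33 on WT_WASHOUT 1 and 3.62 to 3.67 on the other 4 washout arrays. The 3 APP-PS1_UA arrays that shared row 1 of slide 2 with WT_WASHOUT 1 had 3.30 to 3.34. The 4 arrays of slide 2, row 2, were all WT_WASHOUT, so a difference by row and a difference between animals cannot be told apart there. With array row as a block the list median was 0.22, and with slide and row together it was -0.14.

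Clock genes had members on both sides. Dbp, an output factor of the circadian clock, had levels of 4.27, 4.03, 3.98 and 4.08 in WT_CTR and of 3.86, 3.27, 3.41, 3.71 and 3.42 in WT_WASHOUT. All washout arrays were below all controls, and the difference of -0.56 ± 0.11 (SE, n = 4 and 5) had a limma adjusted p of 0.158. Of 19 tested members, Per1 and Nfil3 had an unadjusted p under 0.05 with a higher level, and Dbp, Nr1d1, Ciart and Cry1 with a lower one. Over all genes, 3.99% had such a p with a higher level and 4.19% with a lower one. Nfil3, a repressor that binds the same sites as Dbp, differed by 0.47 ± 0.14, and Nr1d1 by -0.50 ± 0.21 (SE, n = 4 and 5). The core genes Arntl and Clock differed by 0.13 ± 0.12 and 0.08 ± 0.10.

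**Figure D4:**
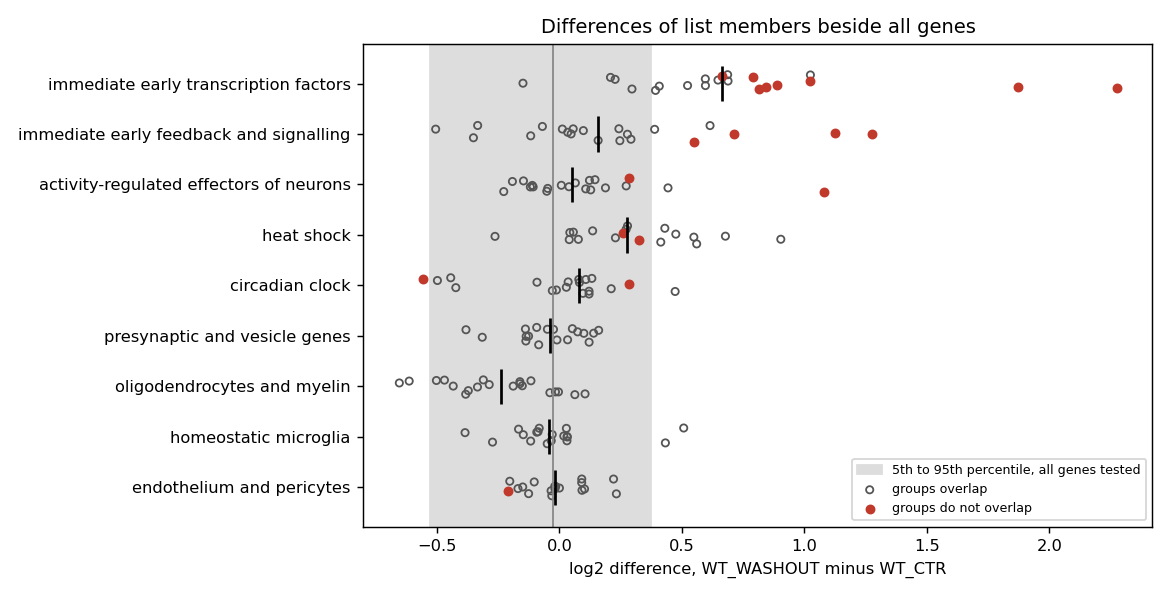
Log2 differences, WT_WASHOUT minus WT_CTR, of the tested members of 9 gene lists, with open points where the groups overlap, red points where they do not, a black line at the list median and a grey band for the 5th to 95th percentile of all 35259 genes. The transcription factors have a median of 0.66 with 8 red points, and the presynaptic, microglial and endothelial lists have medians of -0.04, -0.04 and -0.02.

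Of the 32 lists examined, 30 had 0 called members; Cxcl1 and Ch25h were the called members of the other 2, inflammatory cytokines and plaque-associated microglia. The other tested members of the plaque-associated list went without a call, its median was -0.07, and Cst7 differed by 0.06 ± 0.32 (SE, n = 4 and 5). Medians were -0.04 for presynaptic genes, -0.04 for glutamate receptors and scaffolds, 0.01 for interneurons, 0.03 for astrocyte identity, -0.04 for homeostatic microglia, -0.02 for endothelium and pericytes, 0.10 for oxidative phosphorylation and 0.02 for ribosomal proteins. In several lists with 0 calls, most or all members had a difference below 0, among them the following 4. The median was -0.45 for choroid plexus (14 of 16 below 0), -0.43 for ependyma and cilia (14 of 14), -0.33 for meninges and fibroblasts (14 of 14) and -0.26 for blood cells (15 of 15). No member of the 4 lists had an unadjusted p under 0.05 or groups without overlap, and the ranges of the mean level overlapped, from -0.49 to 0.65 in WT_CTR and from -0.64 to 0.11 in WT_WASHOUT for meninges. With slide as a fixed block these medians were 4.15, 0.93, 0.04 and 0.13, and with array row as a block they were -1.93, -1.15, -0.53 and -0.45. The median was -0.24 for genes of oligodendrocytes and myelin, with 18 of 20 below 0, of which Sox10 had the lowest p (difference -0.50 ± 0.21, SE, n = 4 and 5, limma adjusted p 0.557). Genes of neurogenesis and proliferation had a median of -0.27, with 13 of 17 below 0. An unadjusted limma p under 0.05 with a lower level was found for 4 of the 17, beside 4.19% of all genes. With a higher level it was found for 0, beside 3.99%. Ccnb1, a mitotic cyclin of this list, differed by -1.16 ± 0.40 with a limma adjusted p of 0.481. Most members were also below 0 for thalamus and habenula (10 of 13) and for hippocampal subfields (13 of 19). Amigo2, a marker of CA2, ran from -1.51 to -0.91 in WT_CTR and from -2.61 to -1.73 in WT_WASHOUT, and its difference of -0.88 ± 0.20 (SE, n = 4 and 5) had a limma adjusted p of 0.235. The other subfield markers overlapped between groups. Genes of the glucocorticoid response had a median of 0.09 over 20 tested members, with 0 called. Groups did not overlap for 2 members that were higher and 2 that were lower in WT_WASHOUT, beside 0.896% and 0.953% of all genes.

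Of the 15 tested genes of the cytokine list, 11 were well above background on all 9 arrays, and 8 had a difference above 0 and 7 below it. Il1b, a cytokine of the inflammasome, had 2 of 4 control arrays and 5 of 5 washout arrays well above background, with levels of -7.72 to -5.78 and of -5.47 to -4.91. Its difference of 1.20 ± 0.50 (SE, n = 4 and 5) had a limma adjusted p of 0.554. Tnf differed by -0.04 ± 0.12 and Ccl2 by -0.30 ± 0.53, the latter with 1 high washout array at -2.27 (WT_WASHOUT 5) and the other 4 at -5.94 to -5.03. WT_WASHOUT 5 also had the highest Cxcl1 level.

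Transcripts of liver and choroid plexus varied widely between single arrays. Albumin (Alb) had levels of 0.58 and 0.00 on WT_WASHOUT 2 and 3, -6.78 to -5.48 on the other 3 washout arrays and -8.55 to -7.59 on the controls, where it was not well above background on any array. The mean of WT_WASHOUT was at least 9.21-fold over the bound of the control arrays, computed from the dimmest signals that were well above background. Of 19 liver transcripts tested, 18 had WT_WASHOUT 2 and 3 as their highest of the 9 arrays, and the major urinary protein Mup18 reached 2.62 and 1.89 there against -7.80 to -6.49 in WT_CTR. The Mup genes are near-identical copies, so which of them was measured is uncertain. None of the 19, a list written after the values were seen, was called. Groups did not overlap for 6 of them, all higher in WT_WASHOUT, beside 0.896% of all genes. An unadjusted p under 0.05 with a higher level was found for 14, beside 3.99%. Their mean level was -1.498 and -2.02 on WT_WASHOUT 2 and 3 and -6.26 to -5.61 on the other washout arrays. All lay above the -6.96 to -6.55 of WT_CTR. Without both arrays 0 genes were called, while the differences of Cxcl1, Ch25h and Fos were 2.57, 2.21 and 1.82. The median of the transcription factors was then 0.61, and that of the liver transcripts 0.45, beside 1.87 with both arrays.

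Choroid plexus genes ranged in mean level over the list of 16 from -2.25 to 2.53 in WT_CTR and from -2.98 to 2.68 in WT_WASHOUT. Transthyretin (Ttr), the leading transcript of that tissue, was at 0.78, 4.03, 6.36, 0.68 and 6.36 on the washout arrays and at 6.80, 1.20, 5.81 and 3.16 on the controls. High and low arrays stood in both groups, and the difference of Ttr was -0.60 ± 1.60 (SE, n = 4 and 5). The mean level of the immediate early transcription factors was within 0.73 to 0.85 on the washout arrays. A link between that level and the choroid plexus genes was not tested.

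**Figure D5:**
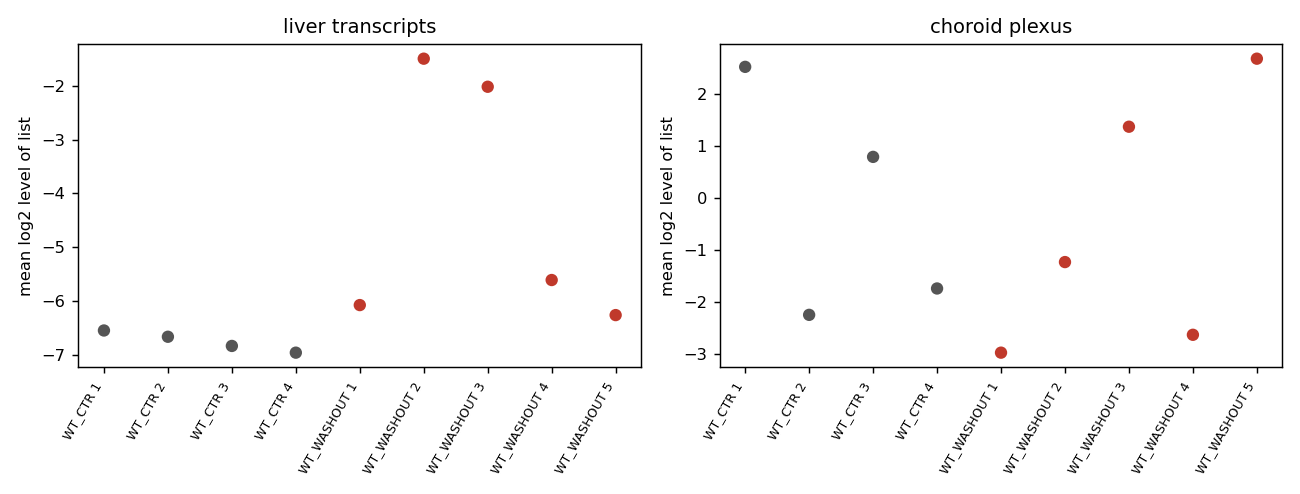
Mean log2 level over 19 liver transcripts (left) and 16 choroid plexus genes (right) on the 9 wild type arrays, grey for WT_CTR and red for WT_WASHOUT. WT_WASHOUT 2 and 3 stand at -1.498 and -2.02 in liver transcripts against -5.61 or lower elsewhere, and choroid plexus levels are spread over both groups.

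The same step in transgenic animals given water, APP-PS1_WASHOUT minus APP-PS1_CTR with 3 arrays each, called 8040 genes (22.8%), on slides 3 and 1. These groups share no array with the wild type comparison. The difference between the steps was called for 4997 genes (14.2%), and slide 3 held only transgenic washout arrays, so genotype and slide cannot be told apart in it. Array row crossed the groups too, since row 1 held WT_CTR and APP-PS1_WASHOUT, and row 2 held APP-PS1_CTR and 4 of 5 WT_WASHOUT arrays. With row as a block, an alternative added after seeing the data, the transgenic step called 3834 genes and the difference between steps 758. Ch25h differed by 2.22 in wild type and by -0.33 ± 0.39 in transgenic animals, and the difference of 2.55 ± 0.51 (SE) had a limma adjusted p of 0.00188, and of 0.181 with row as a block. Transgenic controls started higher in Ch25h, at the -2.40 to -1.96 of APP-PS1_CTR against -4.32 to -2.64 in WT_CTR. Cxcl1 differed by 0.85 ± 0.45 in the transgenic step (limma adjusted p of the difference between steps 0.0578). Avil was called in the transgenic step too, at 0.69 ± 0.16 with a limma adjusted p of 0.00356, and the difference between the steps was 0.16 ± 0.21. With row as a block the transgenic difference of Avil was 0.71 (limma adjusted p 0.0328).

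For activity genes, the transgenic step gave 0.62 ± 0.57 for Fos, 0.96 ± 0.65 for Egr2, 0.21 ± 0.34 for Nr4a1 and -0.07 ± 0.46 for Arc (SE, n = 3 and 3). The difference between steps had limma adjusted p-values of 0.285, 0.338, 0.246 and 0.222 for these 4, so it was not shown for them. It was called for Dusp1 (1.41 ± 0.43, adjusted p 0.0302 in limma), Ccn1 (1.33 ± 0.43, 0.0422), Ier2 (1.15 ± 0.35, 0.0306) and Btg2 (1.32 ± 0.43, 0.0469), each higher in the wild type step. It was also called for Spry4 (-1.06, adjusted p 0.0388 in limma), Rgs2 (-0.63, 0.0175) and Homer1 (-0.52, 0.00781), each lower in the wild type step. Beside these, 14.2% of all genes tested were called. With array row as a block the calls of these activity genes were all lost. Their limma adjusted p-values were then 0.373, 0.176, 0.303, 0.242, 0.682, 0.242 and 0.292, in the order named. Dbp fell in the transgenic step by 0.80 on the log2 scale (limma adjusted p 0.00022), and the difference between steps was 0.24 ± 0.17. Sik1 rose there by 0.61 ± 0.16 (limma adjusted p 0.0083), near its wild type value of 0.71.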

How the data were processed

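Hippocampal RNA was labelled with Cy3 and hybridised to one-colour arrays of 62976 spots. Per the file headers, the authors extracted the spots with Feature Extraction 12.0.3.1, and the deposited processed signal is a linear intensity with its background subtracted, not normalized between arrays. A deposited table of all arrays gives a score that lay within 0.005 of each array's standardized log signal, so its log base is unknown, and its wild type columns had medians of -0.10 to -0.06. From the intensity, log2 values minus each array's 75th percentile were computed. Control spots and 1212 outlier-flagged values were left out. Probes well above background on at least 3 arrays were kept (43988 of 56605), 15 of these were dropped for outlier flags, and of several kept probes the brightest on average stood for the gene. The 35259 genes tested were 18566 with a symbol in the RefSeq table and 16693 probes without one.

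The fit was limma 3.58.1 in R 4.3.3 (lmFit, contrasts.fit, eBayes) with 6 group means over 24 arrays. It was tested on simulated data. The normexp alternative used median foreground and background signals. By rule, genes called with separated groups, all activity genes, the leading gene of each other list and fixed controls (Prnp, Cst7 and Ttr) were named. Genes named outside this rule were chosen after their values were seen. Among them were Hsph1, Chordc1, Hspa1b, Nfil3, Nr1d1, Ciart, Cry1, Arntl, Clock, Il1b, Tnf, Ccl2, Alb and Mup18. Members and lists were chosen with earlier results of these data known. The liver list was written after the values were seen, as was the choice to print promoters of genes that were not called. The spread behind each p-value is that between animals within groups, not that between slides.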

Additional observations from a re-analysis of the deposited data

Results flagged for a closer look

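A single array stood far from the rest of its group in 7 of 262 groups of levels examined, and about 1 in 20 such groups is picked out by chance. WT_WASHOUT 1 was low in the mean level of heat shock genes at 3.33, with the other 4 washout arrays at 3.62 to 3.67. WT_WASHOUT 5 was high in the mean level of inflammatory cytokines at -2.92. In WT_CTR, array 2 was low in Arc at 2.46, with the other 3 at 3.30 to 3.44, and array 2 was also the outlying one for Prkcd, a thalamic marker, at -1.22. Array 4 was low in Ier3 at -2.43, array 1 was low in the mean level of clock genes at 0.79, and array 3 stood apart in the mean level of autophagy genes at 2.05.

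By a test of the difference itself (limma, adjusted p under 0.05), the wild type and the transgenic step differed for 10 genes. These were among 97 genes named by rule, beside 14.2% called over all genes tested. The wild type step lay above the transgenic one by 2.55 for Ch25h, 1.41 for Dusp1, 1.33 for Ccn1, 1.32 for Btg2, 1.15 for Ier2 and 0.66 for Dnajb1. It lay below by -1.51 for Cd3e, a T cell gene, -1.06 for Spry4, -0.63 for Rgs2 and -0.52 for Homer1. For these 4 the wild type differences were -0.33, -0.07, 0.10 and 0.11, and the transgenic ones were 1.18, 0.99, 0.73 and 0.63. The transgenic washout arrays lay on slide 3, so genotype and slide cannot be told apart in these differences. With array row as a block none of the 10 had an adjusted p under 0.05 in limma (0.0702 to 0.732), while 758 of all genes did. Of genes named outside the rule, Tnf and Cry1 also differed (limma adjusted p 0.000485 and 0.0245). Neither did with row as a block (0.200 and 0.487).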

How the results depend on the processing

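The 6 calls became 2 with quantile normalization, 3 with the score of the series matrix, 22 with array weights and 76 with slide as a random block (estimated correlation -0.0575). There were 0 calls in limma with array row as a block, with slide and row as blocks, on the 9 wild type arrays alone and on the 16 arrays of slides 1 and 2, where 2395, 1308, 2060 and 2617 genes had an unadjusted p under 0.05. Slide as a fixed block gave 2, neither among the 6 and named after their values were seen (Gm6567 and the unnamed probe A_30_P01018998). Leaving out WT_WASHOUT 2 and 3 together, chosen after seeing the data, gave 0, with 2488 at an unadjusted p under 0.05. Leaving out 1 array at a time gave 0 to 21. A replicate block gave 3 calls (Ch25h, Cxcl1 and Arid5a). Deviations of arrays with the same number correlated at 0.0228, 0.2091, 0.2379 and 0.1189, and with 1 of the 4 under 0.1 the numbers were not taken to pair the animals, which these values do not settle. Not every array correlated best with its own number. The median of the transcription factors moved to 0.17 and that of heat shock genes to -0.14 with slide and row as blocks. That of the feedback genes was 0.25 with array median centring, 0.071 with array weights and -0.012 with slide and row. With 1 array left out those medians were 0.56 to 0.73, 0.25 to 0.35 and 0.09 to 0.23. With array row as a block, added after seeing the data, the difference between steps was called for 758 genes and the transgenic step for 3834, and with 1 wild type array left out the former was 4121 to 5981. No called value changed sign in any alternative. Slide as a fixed block was not run for the difference between steps, since slide 3 held no wild type array. The cause of these changes was not tested. The number of arrays limits the precision, and levels near background have only a bound.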
